A study of Ananas comosus with 8 samples.

Results

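The beta carbonic anhydrase (beta-CA) genes of pineapple, Ananas comosus, were examined in 2 parts of the leaf, the photosynthetic green tip and the non-photosynthetic white base. The members are Aco006181, Aco005402 and Aco002732, the 3 genes the study names as beta-CA, found by gene identifier among the 27024 genes of the expression matrix. The RNA came from the D leaf, the youngest mature leaf of the plant, of field-grown cultivar MD-2. The labels list 4 RNA-seq libraries, 2 biological replicates for each tissue, and give no time of day or plant age. The study collected leaves around the clock and describes 2 libraries per tissue for its 10 am samples. The values may therefore stand for a single time of day, but which time the matrix holds is not stated in the sources used here. The study prints FPKM by time of day for DNA methylation genes, and these were not compared with the matrix. For every gene the deposited table has a single value per tissue, in FPKM (a fragment count divided by transcript length and library depth). No spread between libraries can therefore be given, and no difference below has a test. The genes were chosen with earlier results of these data known, so their direction is a description.

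Carbonic anhydrases interconvert carbon dioxide and bicarbonate. In Crassulacean acid metabolism (CAM), stomata open at night, and bicarbonate is the form of carbon that phosphoenolpyruvate carboxylase (PEPC) fixes. The product is reduced to malate and stored in the vacuole, and by day the malate is decarboxylated behind closed stomata, which brings carbon dioxide to Rubisco. The beta class holds abundant leaf enzymes of plants, in chloroplasts and the cytosol. Gamma-class proteins of plants are known from Arabidopsis as parts of mitochondrial complex I, and the alpha class is a separate family with the same reaction.

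All 3 beta-CA genes were higher in the tip than in the base, by unequal amounts. Aco006181 was near the limit of expression in the white base and high in the green tip. Aco005402 was the most abundant beta-CA transcript of the green tip, and Aco002732 was the most abundant of the white base and differed least between the tissues. Summed over the family, the level was 26.0 FPKM in the white base and 374 FPKM in the green tip, a ratio of 14.4. The columns do not have the same sum, and with both rescaled to the same sum (the TPM scale) the ratio was 7.74. These are whole pieces of leaf, in which fewer cells of a type and less RNA per cell cannot be told apart.

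**Figure D1:**
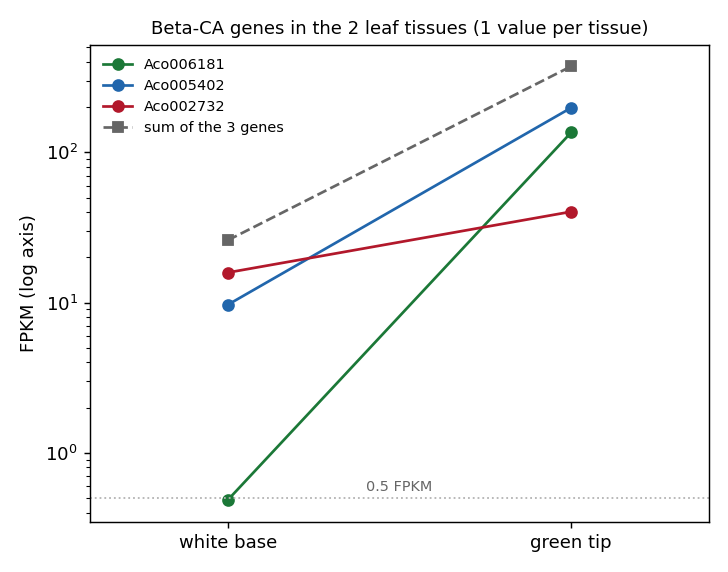
FPKM of the 3 beta-CA genes and of their sum (y axis, log scale) for white base and green tip (x axis), with 1 deposited value per tissue and a dotted line at 0.5 FPKM. The lines cross: Aco002732 is the highest gene in the white base, at 15.9 FPKM, and the lowest in the green tip, at 40.3 FPKM.

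Aco006181 stood at 0.485 FPKM in the white base and at 136 FPKM in the green tip. The white base value lies below 0.5 FPKM, the level above which the study counted a gene as expressed. The ratio of the FPKM values was 280, and it rests on a denominator of under 1 FPKM. On the scale of log2(FPKM + 1), which understates the difference of genes with low values, the log2 ratio (positive where the green tip was higher) was 6.52, or 92.1-fold. In the green tip this gene ranked 888th of all genes and lay at the 94.8th percentile of genes above 0.5 FPKM. In the white base 18142 genes had higher FPKM.

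Aco005402 stood at 9.68 FPKM in the white base and at 198 FPKM in the green tip. Its log2 ratio was 4.22, and the ratio of the FPKM values was 20.5. It lay at the 96.7th percentile of expressed genes in the green tip and at the 41.9th percentile in the white base. Unlike Aco006181, it was above the level of expression in both tissues.

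Aco002732 stood at 15.9 FPKM in the white base and at 40.3 FPKM in the green tip. Its log2 ratio was 1.29, and the ratio of the FPKM values was 2.54. It lay at the 79.7th percentile of expressed genes in the green tip and at the 56.7th percentile in the white base, so it was above the median expressed gene in both tissues.

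All 3 members passed the filter of a mean over 0.5 FPKM, and in 3 of 3 the green tip exceeded the white base 2-fold or more, which on the TPM scale held for 2 of 3. Of the 18372 genes that passed, 17.2% did so, while 20.7% differed as much in the other direction, and the median log2 ratio was -0.0095. Among the members, Aco006181 passed the filter only through its green tip value, as it had 0.485 FPKM in the white base. It could therefore not have been counted on the white base side. The number of all genes past 2-fold was 3169 on the green tip side and 3812 on the white base side as deposited, and 1648 and 7725 on the TPM scale. For Aco006181, 0.103% of these genes had a larger log2 ratio, that is 19 genes, and all 19 also exceeded the 136 FPKM of Aco006181 in the green tip. Their high green tip values follow largely from the calculation. A ratio above 92.1-fold needs FPKM + 1 above 92.1 in the green tip, even in a gene absent from the white base. Genes lower in the green tip could therefore not be among the 19. For Aco005402 the share was 1.07% and for Aco002732 12.9%. Among genes whose mean FPKM lay within 2-fold of that of the member, a larger log2 ratio was found for 7 of 3484 genes around Aco006181, for 65 of 2207 around Aco005402 and for 824 of 6493 around Aco002732. Aco006181 and Aco005402 were thus in the upper tail of the tissue ratios at their own level of expression, whereas 12.7% of genes at the level of Aco002732 exceeded its ratio. For Aco006181 this is in part fixed in advance. With a pseudocount of 1, genes with the lowest means in its window could not reach its ratio, even if absent from the white base.

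**Figure D2:**
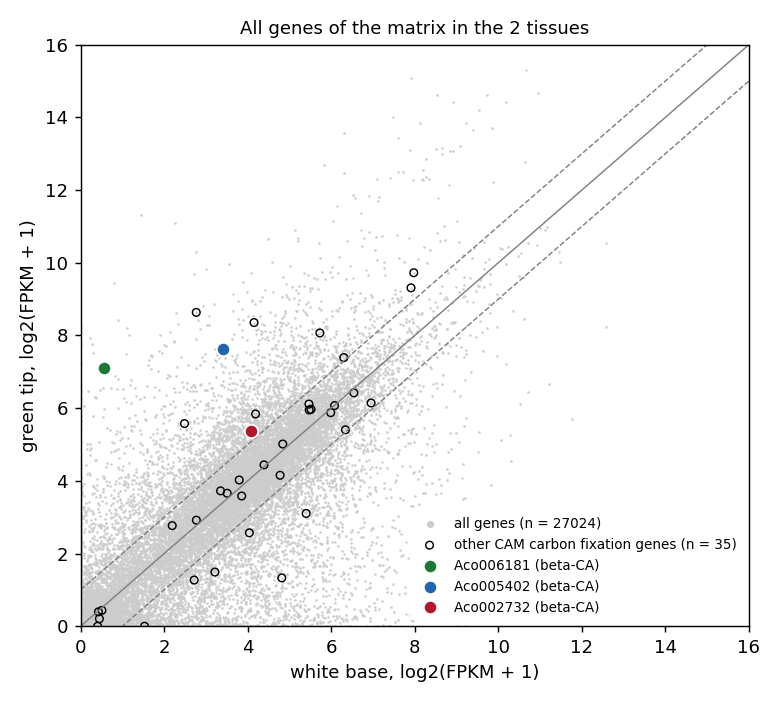
Green tip (y axis) against white base (x axis), both as log2(FPKM + 1), for all 27024 genes (grey), 35 other CAM carbon fixation genes (open circles) and the 3 beta-CA genes (coloured). The solid line marks equal values and the dashed lines 2-fold differences. Aco006181 lies at the upper left edge of the cloud, with 0.485 FPKM in the white base, and Aco002732 lies just beyond the 2-fold line.

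High expression in the green tip beside a white base value at or below 0.5 FPKM was uncommon. Of 909 genes above 0.5 FPKM in the tip and at or below it in the base, 7 reached 100 FPKM in the tip, among them Aco006181. It falls in this class narrowly: under 3 of 5 scalings of the columns its white base value was above 0.5, at 0.794 on the TPM scale, 0.507 with the sum without the 100 highest genes and 0.516 with the gamma-CA sum. The level of 100 FPKM was chosen after its value was seen. By comparison, 1242 genes reached 100 FPKM in the green tip.

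The make-up of the family differed between the tissues. These shares are ratios within a tissue and do not depend on a common scaling factor of that tissue. In the green tip Aco005402 held 53.0% of the summed beta-CA FPKM, Aco006181 36.3% and Aco002732 10.8%. In the white base Aco002732 held 60.9%, Aco005402 37.2% and Aco006181 1.87%. Aco002732 thus went from the first place in the base to the last in the tip. Whether neighbours in these orders differ beyond the spread between libraries cannot be said from 1 value per tissue.

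Within the green tip Aco005402 was 1.46 times as high as Aco006181, the closest pair in that tissue. Within the white base it was 19.9 times as high. Aco006181 was 3.37 times as high as Aco002732 in the green tip, while in the white base Aco002732 was 32.7 times as high as Aco006181. Between these 2 genes the tissue ratios differed 110-fold. These values rest on the 0.485 FPKM of Aco006181, and with a pseudocount of 1 its white base level was below that of Aco005402 by a factor of 7.19 and below that of Aco002732 by a factor of 11.3, and the tissue ratios of Aco006181 and Aco002732 differed 37.6-fold. Aco005402 and Aco002732 also changed places, with a ratio of 4.92 in favour of Aco005402 in the green tip and of 1.64 in favour of Aco002732 in the white base. The tissue ratio of Aco005402 was 8.06 times that of Aco002732, and that of Aco006181 was 13.7 times that of Aco005402, or 4.94 times with a pseudocount of 1.

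The difference of the family sum came mainly from 2 members. Of the 348 FPKM by which the sum was higher in the green tip, Aco005402 made up 54.1%, Aco006181 38.8% and Aco002732 7.02%. Without Aco006181 the ratio of the sums was 9.34, and without Aco005402 it was 10.8. Without Aco002732, which held most of the white base sum, it was 32.9. On the TPM scale these ratios were 5.03, 5.80 and 17.7.

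The family was set beside the other carbonic anhydrases the study names. Over the 10 CA genes together, the beta class held 15.9% of the summed FPKM in the white base and 65.8% in the green tip. The gamma class, at 131 FPKM in the white base and 148 FPKM in the green tip, held 80.0% and 26.0%. The alpha class held 4.18% and 8.23%.

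**Figure D3:**
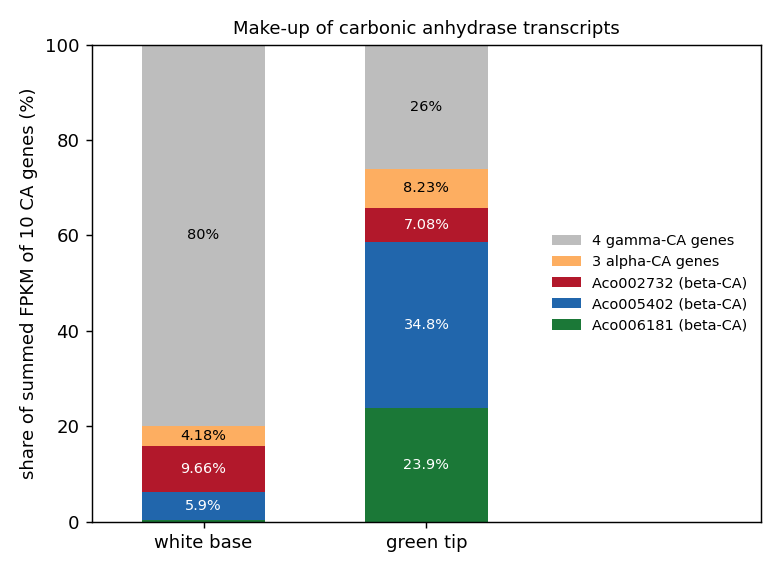
Share of the summed FPKM of 10 carbonic anhydrase genes (y axis, percent) for white base and green tip, split into the 3 beta-CA genes, the sum of 3 alpha-CA genes and the sum of 4 gamma-CA genes. Gamma-CA genes make up 80.0% of the white base bar, and Aco005402 and Aco006181 make up 34.8% and 23.9% of the green tip bar.

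Of the 4 gamma-CA genes, 3 were within 2-fold, against 0 of 3 beta-CA genes as deposited and 1 of 3 on the TPM scale. Most genes were within 2-fold as deposited, since 17.2% of all genes were past it on the green tip side and 20.7% on the white base side. Aco014975 had 62.5 FPKM in the white base and 57.7 FPKM in the green tip. In the same order, Aco023760 had 20.0 and 20.7 FPKM and Aco019038 had 43.2 and 68.1 FPKM. Aco017803, at 5.58 and 1.41 FPKM, was lower in the green tip by more than 2-fold. On the TPM scale 3 of the 4 were again within 2-fold, but the directions were not the same: 2 gamma-CA genes had a log2 ratio above 0 as deposited and 0 on the TPM scale. Of the alpha-CA genes, Aco007803 had 4.60 FPKM in the white base and 46.7 FPKM in the green tip, a log2 ratio of 3.09 that lies between those of Aco005402 and Aco002732. Aco016727 had 1.89 FPKM in the white base and was listed at 0 in the green tip. Aco001338 had 0.365 and 0.154 FPKM and did not pass the filter.

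Among the 35 other CAM carbon fixation genes, 31 passed the filter. Of these 31, 8 exceeded 2-fold on the green tip side, 6 on the white base side and 17 were within 2-fold, that is 25.8% and 19.4% against 17.2% and 20.7% of all genes. Their median log2 ratio was 0.15. The balance turned with the scaling: 4 were past 2-fold on the green tip side and 11 on the white base side on the TPM scale, and 6 and 8 after quantile normalization. Aco006181 had the largest log2 ratio among the carbon fixation genes that passed the filter, ahead of Aco024818, a gene for pyruvate orthophosphate dikinase (PPDK), which regenerates phosphoenolpyruvate from pyruvate. Aco005402 ranked at place 3 and Aco002732 at place 10. After quantile normalization these places were 1, 3 and 8. The other scalings multiply a whole column by 1 factor and hardly bear on an order of genes.

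**Figure D4:**
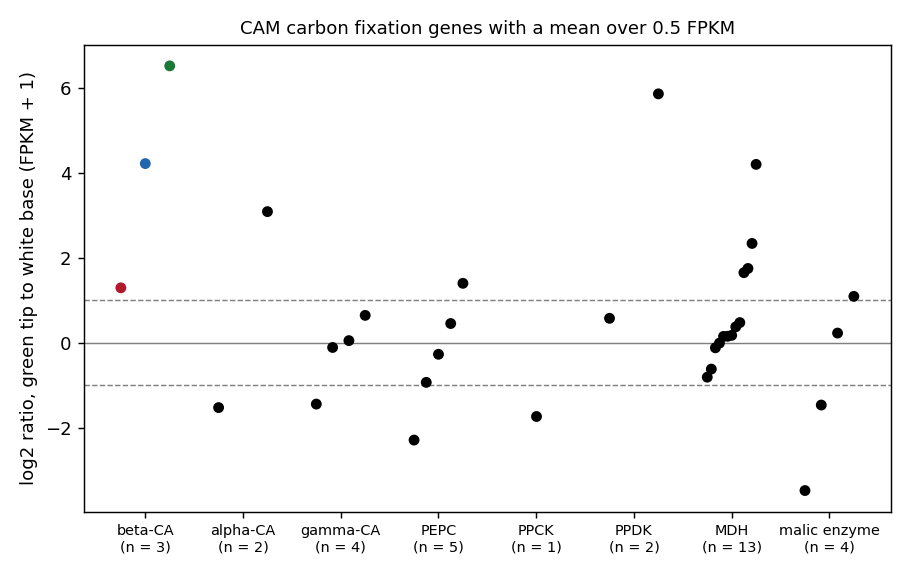
Log2 ratio on FPKM + 1, green tip over white base (y axis), for the carbon fixation genes with a mean over 0.5 FPKM, by gene family (x axis, with the number of genes), each point 1 gene, the beta-CA genes coloured. Dashed lines mark 2-fold. All 3 beta-CA points lie above the upper line, while the PEPC, MDH and malic enzyme families have members on both sides of 0.

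In the PEPC, MDH and malic enzyme families, members differed in direction, as deposited and under all 5 scalings. Of 5 PEPC genes, Aco010025 had the highest log2 ratio, with 239 FPKM in the white base and 633 FPKM in the green tip, and Aco016429 the lowest, with 41.2 and 7.59 FPKM. Of 2 genes for PEPC kinase (PPCK), which phosphorylates PEPC, Aco013938 alone passed the filter, with 8.29 and 1.81 FPKM. Of 13 genes that passed the filter for malate dehydrogenase (MDH), which forms malate, 4 exceeded 2-fold on the green tip side and 0 on the white base side. On the TPM scale 2 and 3 did. Of all genes 17.2% and 20.7% did as deposited, and 1648 and 7725 of 18372 on the TPM scale. The MDH log2 ratios ran from that of Aco007734, at 123 FPKM in the white base and 69.6 FPKM in the green tip, to that of Aco004996, at 16.8 and 326 FPKM. Of the 4 such genes for malic enzymes, which decarboxylate malate, Aco005631 had 77.8 and 167 FPKM and Aco009967 27.1 and 1.51 FPKM. Of the 2 PPDK genes, Aco024818 had 5.81 and 396 FPKM and Aco014488 3.57 and 5.81 FPKM.

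Ratios to these genes within a tissue are likewise free of a common scaling factor. Aco002732 was at 6.36% of the FPKM of the PEPC gene Aco010025 in the green tip and at 6.62% of it in the white base. In the same order, Aco005402 was at 31.3% and 4.04%, and Aco006181 at 21.4% and 0.203%. The tissue ratio of Aco002732 was 2.54 and that of this PEPC gene 2.65, whereas the other beta-CA genes had larger ones. The PPDK gene Aco024818 had a tissue ratio of 68.1, which lies between those of Aco006181 and Aco005402. Relative to it, the beta-CA sum stood at 448% in the white base and 94.5% in the green tip.

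Likeness to other genes was measured as the Euclidean distance on log2(FPKM + 1) over the 2 tissue values. Among the carbon fixation genes outside the family, the gene nearest to Aco006181 was the alpha-CA gene Aco007803, at a distance of 2.45, and 176 of all genes were nearer. The nearest to Aco005402 was the MDH gene Aco004996, at 1.03, with the log2 ratios 4.22 and 4.20. The nearest to Aco002732 was the MDH gene Aco017528, with 17.2 FPKM in the white base and 56.3 FPKM in the green tip, at 0.49. Over all genes, 3 lay within 0.5 of Aco006181, 21 within 0.5 of Aco005402 and 432 within 0.5 of Aco002732. The nearest were Aco004956, with 0.545 and 146 FPKM, to Aco006181, and Aco012610, with 9.71 and 219 FPKM, to Aco005402. The sources used here name neither gene.

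The FPKM columns do not have the same sum, which is 611241 for the white base and 1136442 for the green tip. The 100 highest genes of each tissue account for 18.7% and 50.0% of it. How the columns are scaled to each other therefore bears on every tissue ratio. The TPM scale moved the median log2 ratio of all genes to -0.80. Aco006181 was then at 0.794 TPM in the white base and 119 TPM in the green tip with a log2 ratio of 6.07, and Aco005402 at 15.8 and 174 TPM with 3.38. Aco002732 was at 25.9 and 35.5 TPM, a log2 ratio of 0.44, which is under 2-fold. Less the median of all genes, the log2 ratio of Aco002732 was 1.24 in TPM, and its lowest value over 5 scalings was 1.18, after quantile normalization. Subtracting the median largely undoes a factor common to a column, so these values cannot show that the ratio holds on the TPM scale. Scaling by the summed FPKM of the gamma-CA genes gave log2 ratios of 6.41, 4.06 and 1.13 for Aco006181, Aco005402 and Aco002732.

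**Figure D5:**
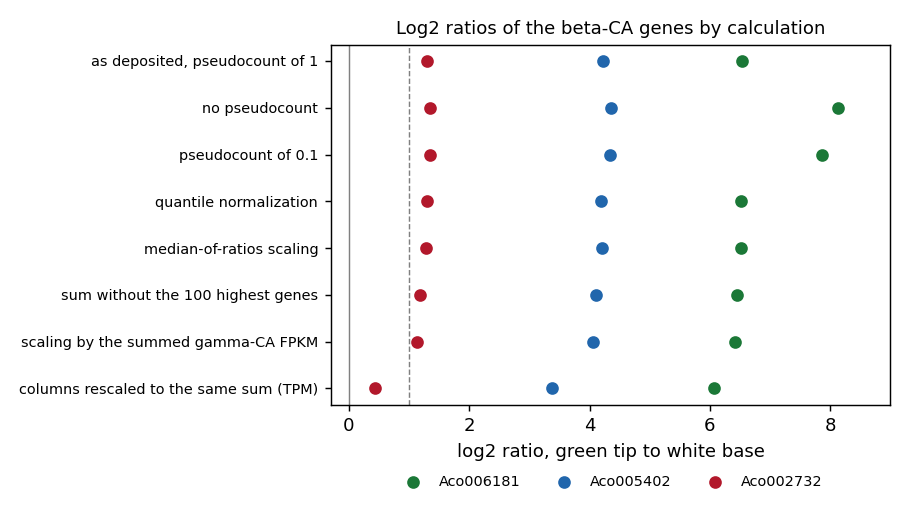
Log2 ratio, green tip over white base (x axis), of each beta-CA gene as deposited and under 2 other pseudocounts and 5 scalings (y axis), with a dashed line at 2-fold and a solid line at equal values. Aco006181 ranges from 6.07 to 8.13, and Aco002732 is below the 2-fold line in 1 of them, TPM, at 0.44.

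In the RefSeq gene table of pineapple (cultivar F153, ASM154086v1), the gene models of the study were matched by position, since no identifier of the matrix occurs there. Of 83 genes for which the study's tables give a position, 77 overlapped a RefSeq gene over more than 50% of their joint span. Aco006181 matched LOC109722624 on chromosome 16, Aco005402 matched LOC109717402 on chromosome 11 and Aco002732 matched LOC109712227 on chromosome 6, all protein-coding. The 3 genes thus lie on different chromosomes. Positions are not given here, because the sources used here name no build for the matrix. The model of Aco005402 is also overlapped by LOC109717400. Use of strand in counting is not stated, so reads from the shared stretch cannot be told apart between the genes, and the FPKM of Aco005402 may hold reads of its neighbour.

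The genes numbered beside the members had smaller tissue ratios than Aco006181 and Aco005402. Only 0.103% and 1.07% of the genes that passed the filter had larger ones than these 2 members. Almost any few genes would therefore have smaller ones. Of the 9 genes that passed the filter among the 5 identifiers on each side of Aco006181, 3 exceeded 2-fold on the green tip side, and the largest log2 ratio was 3.59. Around Aco005402 it was 1 of 8, with a largest log2 ratio of 1.43. Around Aco002732 it was 0 of 8, with a largest log2 ratio of 0.78. In the same order, 1, 2 and 2 of these neighbours exceeded 2-fold on the white base side. Of all genes that passed the filter, 17.2% did so on the green tip side and 20.7% on the white base side. The identifiers directly before and after Aco006181 had 13.0 and 2.30 FPKM in the green tip, and those beside Aco005402 had 30.0 and 5.11 FPKM. Of 13 pairs of genes with a known position and identifiers at most 10 apart, 13 lay on the same chromosome, and of 22 pairs at most 60 apart 21 did. The positions of these neighbours themselves were not examined.

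No gene for Rubisco or the light-harvesting proteins is named in the sources used here, so the tissue labels could not be checked against defining markers. The PEPC genes alone do not serve, since 2 of 5 had a log2 ratio above 0 and their median was -0.27. The 2 PPDK genes were both above 0 as deposited, Aco024818 at 5.87 and Aco014488 at 0.57. On the TPM scale Aco014488 was at -0.16 and Aco024818 at 5.06.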

How the data were processed

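The deposited matrix gives, for each gene, the FPKM of each tissue and the mean of both. The authors' methods name Trimmomatic, HISAT2 with uniquely mapped reads, and StringTie for FPKM, whereas the submitters' processing notes name TopHat2 2.1.0, Cufflinks and Cuffdiff 2.2.1. Which route made these values, and how 2 libraries became 1 value per tissue, is not given in the sources used here. Where both tissues had values above 0 that averaged below 0.1 FPKM (226 genes), at most 13 tissue ratios fell together in a bin of 0.01 on the log2 scale, so depth was not recovered and no counting interval is given.

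The planned limma test could not be run on single values. In its place the log2 ratio of FPKM + 1 was calculated for genes with a mean over 0.5 FPKM, with 2-fold as the criterion. The carbon fixation list holds the genes of the study's qRT-PCR primers and Aco019038, 38 in all, each with a row in the matrix. Members and lists were chosen with earlier results of these data known. Named are the beta-CA genes, the other CA genes, the genes with the highest and the lowest log2 ratio of each other family, the nearest carbon fixation gene to each member, and the genes nearest to Aco006181 and Aco005402. Alternatives were other pseudocounts, filters and 5 scalings (TPM, median-of-ratios, quantile normalization, the sum without the 100 highest genes, the gamma-CA sum). The bisulfite sequencing libraries (4 in the labels) were not analysed here. Python 3.11.15, numpy 2.4.6, pandas 2.3.3 and matplotlib 3.10.9 were used, and calculations were tested on simulated data.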

Additional observations from a re-analysis of the deposited data

How the results depend on the processing

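No paired analysis was possible because single libraries are not columns of the matrix, so none could be left out either. The log2 ratios of Aco006181 and Aco005402 kept their direction and stayed past 2-fold under 2 other pseudocounts and 5 scalings, from 6.07 to 8.13 and from 3.38 to 4.36. The value of 8.13 for Aco006181 was without a pseudocount. The log2 ratio of Aco002732 was 0.44 after TPM rescaling and 1.13 to 1.35 otherwise. Each scaling moves the ratios by its construction, and which of them suits these tissues was not tested. TPM rescaling also moved the number of all genes past 2-fold on the green tip side from 3169 to 1648 and on the white base side from 3812 to 7725, and for the other carbon fixation genes from 8 to 4 and from 6 to 11. Of the genes named here that were past 2-fold on the green tip side, the PEPC gene Aco010025 fell under it after TPM rescaling (0.51) and quantile normalization (0.94), the MDH gene Aco017528 after TPM rescaling (0.79), and the malic enzyme gene Aco005631 under 4 of 5 scalings, at 0.21 to 0.97. The share of calls higher in the green tip was 45.4% as deposited, 17.6% after TPM rescaling and 52.1% after quantile normalization. For the carbon fixation genes it was 57.1%, 26.7% and 42.9%. Among all genes above 0 FPKM the white base percentile of Aco005402 was 49.0 and that of Aco002732 61.9. The spread between libraries and the depth cannot be read from these values.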
